A study of Mus musculus with 12 samples.

Results

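Glucose uptake, glycolysis, lactate export and the hypoxia response were followed through 36 genes in mast cells grown from mouse bone marrow. The members were every probe set whose annotated symbol was exactly one of these 36 symbols, and each gene was summarised by its brightest set, the one with the highest mean log2 signal on its chip. Of the 36 members, 33 had a set that carried their symbol alone, against 18193 genes with such a set in all, and 29 of the 36 were bright enough to be tested. There were 3 cultures of mature mast cells (M2, M4 and M6), taken after 57 to 110 days, and 3 cultures of mast cell precursors (M1, M3 and M5), taken after 14 to 16 days. All 6 grew in RPMI with serum, pyruvate, glutamine and interleukin-3 (IL-3), a cytokine on which cultured mast cells depend, and growth in IL-3 was the means of purification. M6 and M1 are labelled female, the others male, and the labels give no strain, age or genotype. The labels state 37 °C and 95% CO2 for both stages and name neither an oxygen level nor a hypoxia treatment. That CO2 share is far above what mast cells are usually grown in and may be a slip, so the oxygen supply of the cultures is not known. Each culture's RNA was hybridised to a pair of Affymetrix arrays, 1 of type MOE430A (chip A) and 1 of type MOE430B (chip B), and values are MAS5 signals, a linear brightness that does not compare between probe sets.

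Glycolysis splits glucose into pyruvate in the cytosol and yields ATP without oxygen, and lactate dehydrogenase then turns pyruvate into lactate, which leaves through monocarboxylate transporters. The transcription factor HIF-1, of which Hif1a encodes the oxygen-regulated subunit, switches on most of these enzymes together with genes of mitochondrial turnover, growth arrest and collagen modification. In air, prolyl hydroxylases such as Egln1 mark the HIF-1 alpha protein for breakdown, so that its activity is set largely at the protein level and is not read by its mRNA. Activated mast cells are known to draw on glycolysis for degranulation and cytokine production.

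HIF-1 binds the core letters ACGTG and GCGTG, and these letters were searched on both strands of RefSeq promoter windows of the mouse build GRCm38.p6. A window runs from 250 bases before to 50 bases after a start, which need not be the annotated start of the gene. Of 24 members with a single window, it began 250 bases before the annotated gene start in 17 and elsewhere in the rest. Windows of 33 members matched by symbol, 46 windows in all. A core stood in at least 1 window of 30 of the 33 members (90.9%), against 52.3% of 17491 protein-coding genes. Many members were picked because they are known hypoxia-responsive genes, so this share describes the choice of genes. The palindrome CACGTG, which holds ACGTG on both strands, counted as 2 matches, and Ldha had the most, 7 in one window. The windows of the 4 members with an unadjusted p under 0.05 between the stages and of Pgk1, a long-studied HIF-1 target, are shown in gene orientation with the core letters of either strand in capitals. They lie at chr10:59951721-59952020 (Ddit4, minus strand), chr4:119108495-119108794 (Slc2a1, plus), chr10:59323046-59323345 (P4ha1, plus), chr13:55021336-55021635 (Hk3, minus) and chrX:106186850-106187149 (Pgk1, plus).
Ddit4: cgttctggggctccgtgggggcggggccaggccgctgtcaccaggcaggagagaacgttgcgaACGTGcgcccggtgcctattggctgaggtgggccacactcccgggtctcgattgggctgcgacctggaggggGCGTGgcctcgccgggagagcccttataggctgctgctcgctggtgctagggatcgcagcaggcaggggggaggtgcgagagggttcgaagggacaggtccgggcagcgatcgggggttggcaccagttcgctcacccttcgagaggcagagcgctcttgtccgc
Slc2a1: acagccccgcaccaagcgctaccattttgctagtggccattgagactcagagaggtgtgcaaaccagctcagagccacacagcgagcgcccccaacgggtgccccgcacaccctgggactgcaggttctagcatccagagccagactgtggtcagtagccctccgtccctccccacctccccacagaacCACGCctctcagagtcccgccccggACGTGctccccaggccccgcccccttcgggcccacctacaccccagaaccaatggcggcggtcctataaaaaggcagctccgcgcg
P4ha1: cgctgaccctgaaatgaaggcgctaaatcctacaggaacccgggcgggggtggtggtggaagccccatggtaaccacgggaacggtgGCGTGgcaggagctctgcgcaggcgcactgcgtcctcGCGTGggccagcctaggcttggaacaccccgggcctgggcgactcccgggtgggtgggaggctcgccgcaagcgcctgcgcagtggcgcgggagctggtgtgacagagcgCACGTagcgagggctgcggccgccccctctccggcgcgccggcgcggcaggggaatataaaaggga
Hk3: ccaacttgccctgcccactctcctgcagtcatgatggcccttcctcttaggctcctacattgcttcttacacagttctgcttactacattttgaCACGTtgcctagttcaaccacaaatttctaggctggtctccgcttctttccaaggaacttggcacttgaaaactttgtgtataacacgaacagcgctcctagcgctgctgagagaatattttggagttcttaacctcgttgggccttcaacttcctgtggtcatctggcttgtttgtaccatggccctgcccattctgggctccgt
Pgk1: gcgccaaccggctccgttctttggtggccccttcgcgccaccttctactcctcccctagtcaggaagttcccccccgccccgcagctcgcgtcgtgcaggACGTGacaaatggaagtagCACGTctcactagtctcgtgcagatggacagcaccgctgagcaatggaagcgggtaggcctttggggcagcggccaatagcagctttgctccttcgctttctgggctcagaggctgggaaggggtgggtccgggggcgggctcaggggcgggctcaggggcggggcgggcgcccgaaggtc
Ddit4 and Slc2a1 each held 1 copy of either core, P4ha1 3 cores, Hk3 1 and Pgk1 2. A match is a run of letters and not a measured binding site.

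The comparison of the stages asked which of these genes differed between mature mast cells and their precursors. By the brightest set, 0 of 29 tested members passed limma at an adjusted p under 0.05, against 0.527% of all probe sets kept on chip A and 0.0926% on chip B. The smallest log2 difference of any called set, in either direction, was 1.45 on chip A and 1.55 on chip B, above the 1.38 of Ddit4, the member with the largest, so that a count of 0 is no evidence of equal levels. At an unadjusted p under 0.05, 4 of 29 members passed, Ddit4, Slc2a1 and P4ha1 higher and Hk3 lower in mature cultures, where 6.59% of kept sets did so on chip A and 6.42% on chip B. Mature cultures lay above every precursor culture in 5 of 29 members, all on chip A, where 6.14% of kept sets did so (6.17% on chip B). They lay below in 1, Hk3 on chip B, where the share was 5.83% (6.06% on chip A). These counts take only the brightest set of a gene, while the shares are over all kept sets. Of all 55 kept member sets, 6 had an unadjusted p under 0.05 in limma. The mature cultures lay above in 5 of the 55 and below in 2. The mean was higher in mature cultures for 20 members and lower for 9, and 17 of the 29 differences were smaller than their own standard error. The median log2 difference was 0.197 over the 27 members on chip A and 0.0176 over all kept sets of that chip. For 16 members the 95% interval of the difference stayed within 1 log2 unit of 0, and for 13 it reached further.

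**Figure D1:**
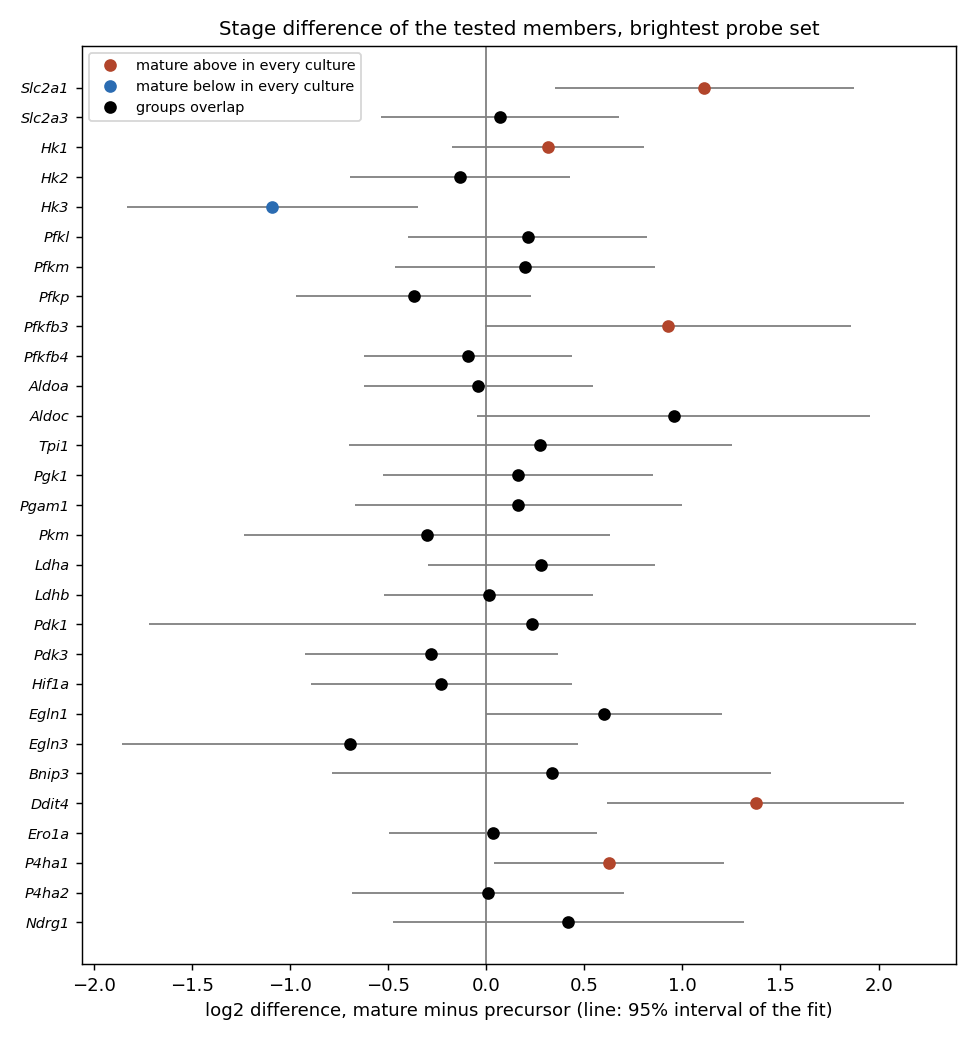
Log2 difference, mature minus precursor, of the brightest probe set of the 29 tested members (point), with the 95% interval of the limma fit (line). Red points mark the 5 members that were higher in every mature culture, and the blue point marks Hk3, the 1 that was lower in every mature culture.

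Of 10 mast cell markers 9 were tested, and 0 passed upward and 1 downward. The one that fell was Hdc, which makes histamine. Kit, a growth factor receptor of mast cells, had 37208 to 47932 units in mature cultures and 27352 to 38961 in precursor cultures. Markers of other cell types did differ, and nothing in bulk RNA tells fewer cells of a type from less RNA per cell. The summed signal of 12 monocyte and macrophage markers was 7719 to 10444 in mature cultures and 47975 to 92375 in precursor cultures, and 7 of the 10 that were bright enough fell. The sum of 11 measured neutrophil and granulocyte markers was 5244 to 11229 in mature cultures, against 75034 to 310154 in precursor cultures, with 2 of 7 called lower, Chil3 and Anxa1. In M3 these 2 genes made up nearly all of the sum, at 56623 and 15308 units, while S100a8 and Prtn3 lay under the floor there and Ngp (601) and Mpo (614) lay within or below the mature range. The 8 stromal markers summed to 5935 to 10289 in mature and 16350 to 24950 in precursor cultures, mostly through Igfbp4, the 1 of 4 called lower. The collagen gene Col1a1, too dim to be tested, ran the other way, with 508 to 691 units in mature and 317 to 411 in precursor cultures, and Sparc was under the floor in all 6. Of 3 tested erythroid markers only the embryonic globin Hbb-y rose, with 14929, 1673 and 7211 units in mature cultures, against 719, 170 and 294 in precursor cultures (log2 difference 3.92, adjusted p 0.0299). The other tested ones, Epor and Ermap, gave -0.74 and 0.43, overlapped between the stages and were not called. Hba-a1, Klf1 and Rhag were too dim to be tested, and Alas2 was under the floor in every culture. Mpeg1, Itgam and Chil3 were at or under the floor in all 3 mature cultures and in no precursor culture. Among the called markers, Cd68 (407 to 508 units), Mpeg1 and Chil3 had all mature values under the chip A median of 582. They passed the filter on dim sets only through precursor cultures, so their calls are not independent of the filter. With no filter on dim sets, 1 set in all was called on chip A. The 3′ over 5′ log2 ratio of the Actb control sets on chip A, where a higher value marks RNA read more from its 3′ end, was 3.28, 3.33 and 3.30 in M2, M4 and M6, against 2.66, 2.82 and 2.26 in M1, M3 and M5. That of the Gapdh control sets overlapped between the stages on chip A, at 4.27, 3.68 and 3.84 in mature and 3.19, 3.75 and 3.23 in precursor cultures. On chip B both ratios were higher in every mature culture. The Gapdh ratio was 4.46, 4.07 and 4.32 in M2, M4 and M6, against 3.24, 3.78 and 3.58 in M1, M3 and M5. The Actb ratio there was 3.11, 3.19 and 3.43, against 2.49, 2.86 and 2.28. The part of these markers and ratios in the results was not tested. Purity is given as about 80%, with bone marrow stroma, monocytes and macrophages as the possible rest, and no source says whether the cultures came from separate mice, so that p-values measure the spread between these cultures.

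Glucose enters blood cells mainly through the transporters encoded by Slc2a1 (GLUT1) and Slc2a3 (GLUT3). Slc2a1 had 10978, 7249 and 20518 units in M2, M4 and M6, against 6098, 5556 and 4769 units in M1, M3 and M5. By this brightest set no precursor culture reached the lowest mature one, and M6 stood highest. The log2 difference was 1.11 ± 0.35 (SE, n = 3 a stage), 2.16-fold, with an unadjusted p of 0.00839 and a limma adjusted p of 0.365. Its other kept sets gave 0.73 and 0.79, and in both the stages overlapped. M4 had 2587 units in the first, below M3 at 2854, and 1768 in the second, below M5 at 1961. Without M6 the brightest set gave 0.71. Slc2a3 had 29691, 33414 and 18488 units in mature cultures and 32279, 21934 and 22319 in precursor cultures, which overlapped, with a log2 difference of 0.07 ± 0.28.

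Hexokinases trap glucose in the cell by phosphorylation, with Hk1 the broadly expressed form, Hk2 the inducible one and Hk3 a form known from myeloid cells. Hk3 carried the only called set among the 55 kept sets of members. This second Hk3 set, on chip B, had 424, 577 and 233 units in M2, M4 and M6, against 7665, 5584 and 13493 units in M1, M3 and M5. Every mature culture lay far below every precursor culture, and M6 lay under the floor of 359, to which it was set before the fit. The set fell by 4.23 on the log2 scale (SE 0.38, n = 3 a stage, limma adjusted p 0.00143), a size that rests on mature values near the floor. It passed the filter on dim sets only through the precursor cultures, since all mature values lay under the chip's median of 864, so this call is not independent of the filter. Its identifier ends in _x_at, which in Affymetrix's naming marks a set with probes that can also match other transcripts. With no filter on dim sets its adjusted p was 0.213, and without any one precursor culture it no longer passed the filter and was not tested.

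The brightest Hk3 set gave 2819, 3050 and 2697 units in mature cultures, against 5047, 4087 and 10861 in precursor cultures. These groups did not overlap either, but the log2 difference was only -1.09 ± 0.34 with an unadjusted p of 0.0079 and a limma adjusted p of 0.515. The 2 sets had the same direction and differed in size. Hk3 was highest in M5, the culture with the highest macrophage and neutrophil sums, and lowest in M6 by both sets. Those sums were lowest in M2 instead, at 7719 and 5244 units, against 9174 and 7090 in M6. M1 had more Hk3 than M3 by both sets. Its macrophage sum was lower than that of M3 (47975 against 68390) and its neutrophil sum higher (158638 against 75034). Without M5 the brightest set gave -0.67. In M3 the second set had 5584 units. Ngp (601) and Mpo (614) lay within or below the mature range there, while Chil3 had 56623 units and the macrophage sum was 68390. The part of other cells in the Hk3 difference was not tested. Hk1 had 12798, 14183 and 12663 units in mature cultures and 8955, 11968 and 11178 in precursor cultures. They did not overlap, yet the gap was small, a log2 difference of 0.31 ± 0.22 with an adjusted p of 0.867. Hk2 overlapped, with 6985, 5917 and 5576 units in mature cultures, 8922, 5759 and 5899 in precursor cultures and a log2 difference of -0.13 ± 0.25. Gpi1, the isomerase of the next step, had no probe set of its own symbol.

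**Figure D2:**
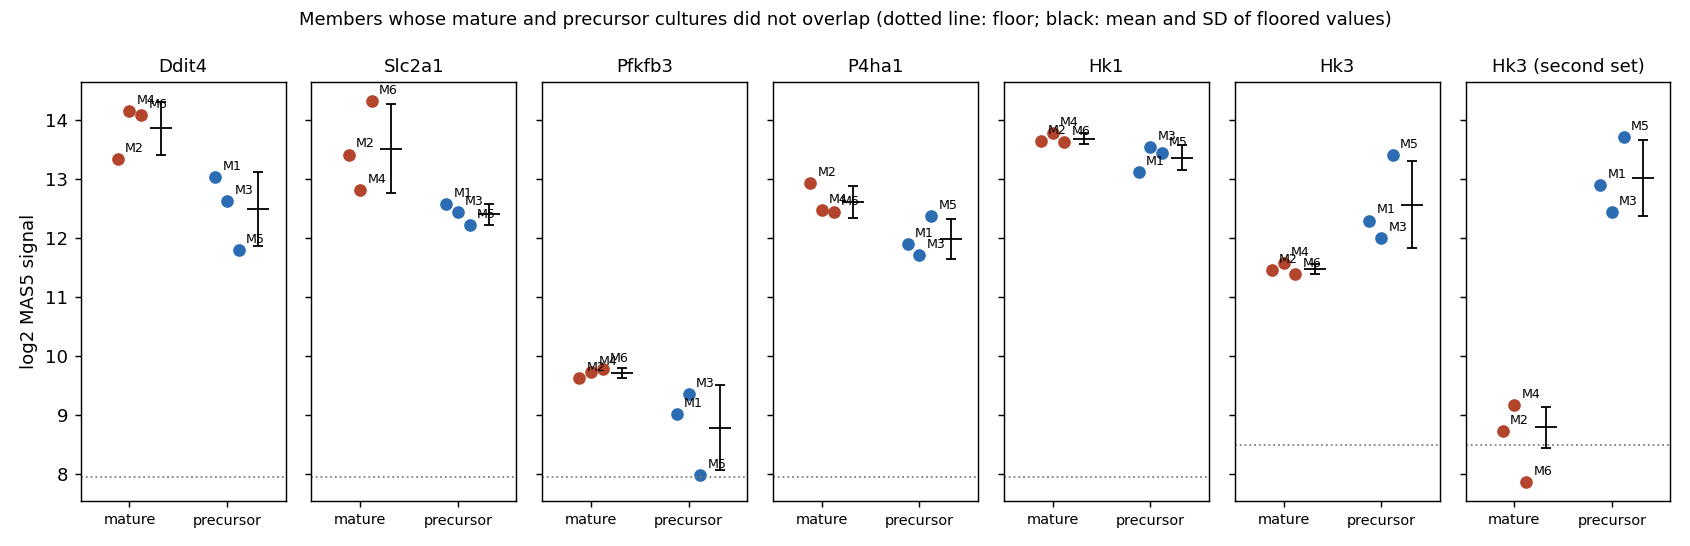
Log2 MAS5 signal per culture for the 6 members whose stages did not overlap by the brightest set, and for the second Hk3 set. Red points are mature cultures, blue points precursor cultures, black marks the mean with SD of the floored values, and the dotted line the floor. The second Hk3 set passed the adjusted test, but was kept by the filter only through its precursor values (adjusted p 0.213 with no filter).

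Phosphofructokinase commits sugar to glycolysis, and the Pfkfb enzymes make fructose 2,6-bisphosphate, its strongest activator. Pfkfb3 was dim, with 787, 846 and 882 units in mature cultures, against 519, 654 and 252 in precursor cultures. Mature cultures all lay above, by a log2 difference of 0.93 ± 0.42 with an adjusted p of 0.748. M5 was lowest, close to the floor of 247. The log2 difference was 0.52 without M5 and 0.47 with a floor at the 50th percentile. Its other set, too dim to be tested, ran the other way, with 265, 326 and 501 units in mature and 719, 524 and 509 in precursor cultures. Pfkl, Pfkm, Pfkp and Pfkfb4 overlapped between the stages, with log2 differences of -0.37 to 0.21.

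In the middle of the pathway aldolase cleaves the sugar and triose phosphate isomerase interconverts the products. Aldoc had 5727, 4128 and 2076 units in mature cultures and 3466, 1095 and 1774 in precursor cultures. Its M6 value lay below M1, so the groups overlapped, and the log2 difference was 0.96 ± 0.45 with an adjusted p of 0.748. Its second set gave 1.25. Aldoa, the main form in most tissues, gave -0.04 ± 0.27 by the brightest set and -0.28 to 0.16 over 5 sets. Tpi1 had 22207, 15303 and 6400 units in mature cultures and 9526, 7467 and 17247 in precursor cultures, a wide spread within both stages. The brightest sets of Aldoa and Tpi1 end in _x_at, like the second Hk3 set, and may also read other transcripts. The other Tpi1 sets, without that ending, gave log2 differences of -0.11 and 0.24, with M6 lowest in both.

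The lower steps return ATP. Pgk1, phosphoglycerate kinase, had 152379, 119846 and 66412 units in M2, M4 and M6, against 100694, 71253 and 120809 in M1, M3 and M5. M2 was highest and M6 lowest, with the precursor cultures between them, and the log2 difference was 0.16 ± 0.31. This brightest Pgk1 set also ends in _x_at. The other Pgk1 sets gave 0.09 and 0.42, the latter again an _x_at set, with M6 lowest in both. Pgam1, phosphoglycerate mutase, followed the same order in mature cultures, 13905, 9462 and 5000 units, with 6730, 6119 and 11374 in precursor cultures. Pkm, pyruvate kinase, had 18223, 13282 and 4805 units in mature cultures and 13235, 10495 and 15672 in precursor cultures. M6 was the lowest culture for all 3 genes and M2 the highest.

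Gapdh had no set of its own symbol other than array controls, and Eno1 had none. A set shared by Gapdh and related loci had 132906, 100290 and 69186 units in mature cultures and 117011, 74980 and 112079 in precursor cultures, a log2 difference of -0.03 ± 0.27. The signal of this set cannot be assigned to Gapdh alone. The neuronal enolase Eno2 was dim, at 61.2 to 183 units in mature cultures and 42.0 to 119 in precursor cultures.

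Ldha, the lactate dehydrogenase subunit that favours lactate, had 80026, 47754 and 48735 units in mature cultures and 40704, 42320 and 60424 in precursor cultures. The groups overlapped through M5, with a log2 difference of 0.28 ± 0.26. Ldhb, the heart-type subunit, varied little, at 1563 to 1789 units in mature and 1483 to 1962 in precursor cultures. The lactate exporters Slc16a1 and Slc16a3 were too dim for the test. Pdk1 encodes a kinase that inhibits pyruvate dehydrogenase in the mitochondrion, and it varied most. It had 3433, 2875 and 246 units in mature cultures, with M6 under the floor of 247, against 1270, 490 and 2402 in precursor cultures. Its SD among mature cultures was 2.12 log2 units, and the 95% interval of the stage difference ran from -1.72 to 2.19. Pdk3 gave -0.28 ± 0.29.

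Hif1a had 5522, 7079 and 3591 units in mature cultures and 4636, 6937 and 7029 in precursor cultures. The stages overlapped, with a log2 difference of -0.23 ± 0.30, and its 3 kept sets gave -0.23 to 0.09. Egln1, the main oxygen-sensing prolyl hydroxylase, had 4485, 5250 and 3132 units in mature cultures and 2340, 3326 and 2720 in precursor cultures. M6 lay below M3, and the log2 difference of 0.60 ± 0.27 had an adjusted p of 0.748. Egln3, itself a HIF target, had 885, 528 and 291 units in mature cultures and 790, 467 and 1559 in precursor cultures, a log2 difference of -0.69 ± 0.53.

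Ddit4 (REDD1) restrains the growth kinase mTOR and responds to hypoxia, glucocorticoids and energy stress. It had 10434, 18211 and 17523 units in M2, M4 and M6, against 8429, 6332 and 3579 in M1, M3 and M5. Mature cultures were above precursor cultures throughout. The log2 difference of 1.38 ± 0.34 (SE, n = 3 a stage), 2.59-fold, had an unadjusted p of 0.00217 and a limma adjusted p of 0.166, with 0.31 within fluidics station 1 (M2 against M1) and 1.91 within station 2. P4ha1, a collagen prolyl hydroxylase subunit, had 7809, 5725 and 5571 units in mature cultures and 3815, 3347 and 5302 in precursor cultures. The log2 difference was 0.63 ± 0.26 with an unadjusted p of 0.038 and an adjusted p of 0.693, and its second set gave 0.04.

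Bnip3, which encodes a mitophagy receptor of the outer mitochondrial membrane, had 17335, 14975 and 3387 units in M2, M4 and M6, against 7842, 6980 and 8031 in M1, M3 and M5. M2 and M4 lay above all precursor cultures and M6 below all of them. The log2 difference was 0.33 ± 0.51 with all cultures and 1.08 without M6, where the adjusted p was 0.144. Its relative Bnip3l was read only by sets shared with a pseudogene, of which the kept ones gave 0.22 and 0.21. Ero1a, an oxidase of disulfide formation, gave 0.03 ± 0.24, P4ha2 0.01 ± 0.31 and the stress-responsive Ndrg1 0.42 ± 0.40.

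Values also differed between cultures of the same stage. M6 was the lowest of the 6 cultures in 13 of 27 members on chip A, where it was lowest in 21.5% of all kept sets. These were Slc2a3, Hk2, Aldoa, Tpi1, Pgk1, Pgam1, Pkm, Pdk1, Pdk3, Hif1a, Egln3, Bnip3 and P4ha2. M2 was the highest culture in 13 of 27 members, where it was highest in 12.2% of kept sets. Slc2a1, Pfkm and Pfkfb3 went the other way and were highest in M6. That is 3 of 27 members, where M6 was highest in 29.0% of all kept sets. The median within-stage SD was 0.41 log2 units over these members and 0.37 over all kept sets.

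M6 differed in more than these genes. It was 1 of 2 female cultures, its RNA was the most dilute, at 1.0 µg/µl against 1.5 to 2.0 in the others, and it had the highest median signal on chip A. The summed signal of 10 measured markers of dividing cells was 55229, 48076 and 21816 units in M2, M4 and M6, against 45937, 42984 and 84747 in M1, M3 and M5. Mki67, a proliferation antigen, had 8179, 8305 and 2304 units in mature cultures and 9645, 4418 and 11331 in precursor cultures. Of these markers Mcm2 alone was not lowest in M6. It had 3587, 9191 and 3792 units in mature cultures and 2849, 6305 and 3520 in precursor cultures. Aurka was lowest in M6 by a small margin, at 1074 units against 1105 in M1. The sum leans on the brightest sets, Pcna and Mki67. The part of cell division, RNA amount or sex in the M6 values was not tested. Leaving out M6 moved the log2 difference of Pkm to 0.26, of Tpi1 to 0.78, of Pgk1 to 0.50 and of Pdk1 to 1.46, against -0.30, 0.28, 0.16 and 0.24 with all cultures, with limma adjusted p-values of 0.915, 0.745, 0.771 and 0.623.

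**Figure D3:**
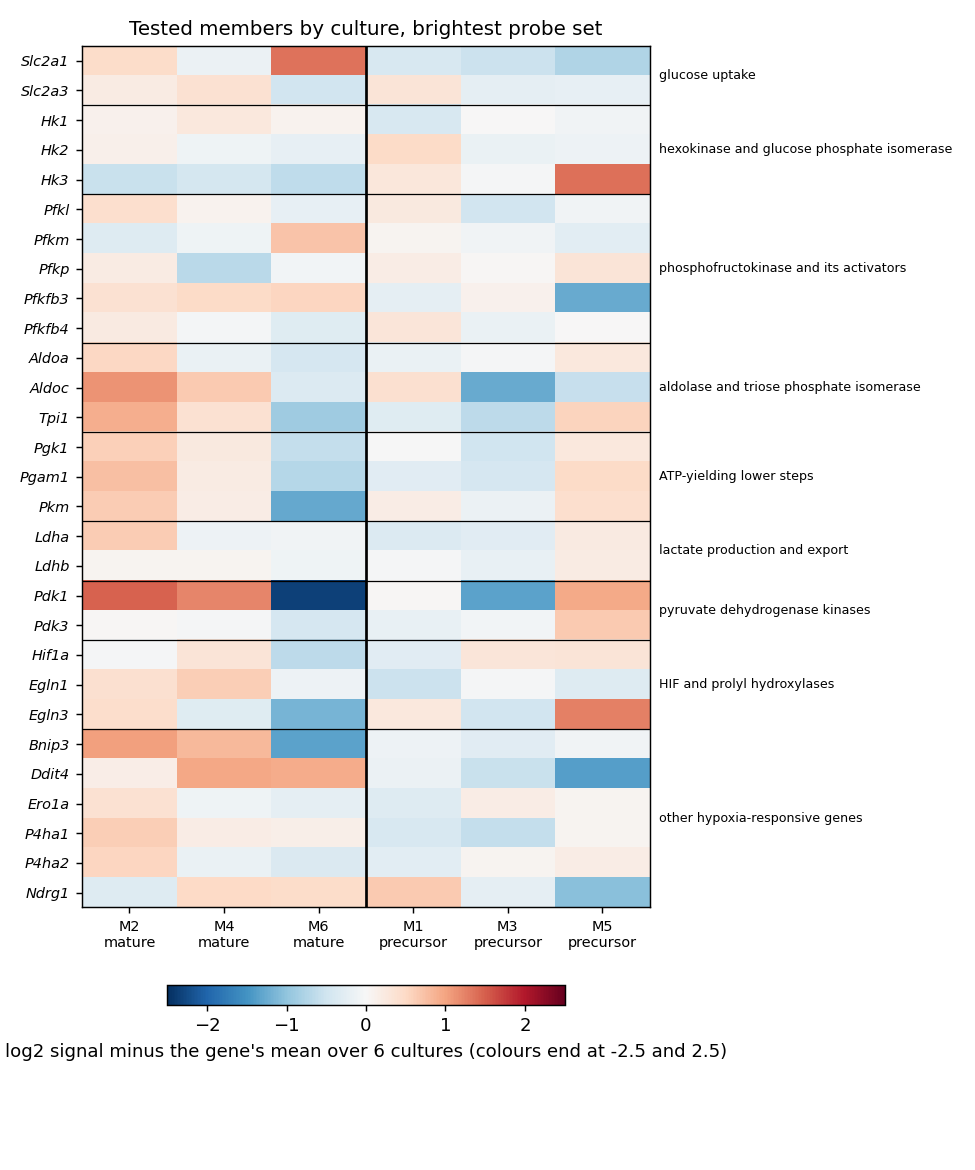
Log2 signal of each tested member minus its own mean over 6 cultures, in colour, with roles separated by lines and mature cultures left of precursor cultures. M6 is the lowest of 6 in 13 of the 27 members on chip A, and M2 the highest in 13.

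**Figure D4:**
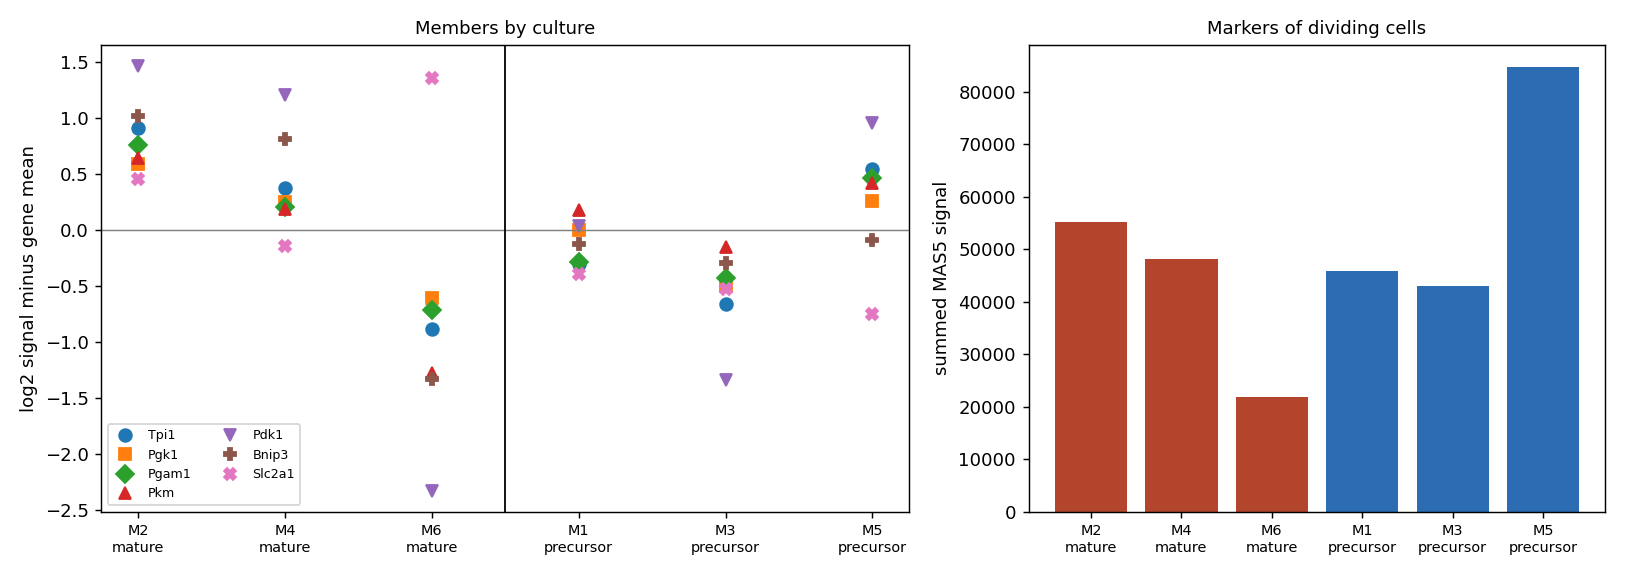
Left, log2 signal minus the gene's mean for 7 members by culture, with Pgk1, Pgam1, Tpi1, Pkm, Pdk1 and Bnip3 low in M6 and Slc2a1 high there. Right, summed MAS5 signal of 10 measured markers of dividing cells, at 21816 units in M6, lower than in each of the other cultures (red mature, blue precursor).

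The stage difference was also set apart by labelled sex, which leaves M6 against M1 for female cultures. It had opposite directions in female and male cultures, in every culture, for 6 of 29 members, against 16.5% of all kept sets on chip A. Bnip3 gave -1.21 in female and 1.11 in male cultures, Pdk1 -2.36 and 1.53, and Aldoc -0.74 and 1.80. The interaction of stage and sex passed for 0 of 55 member sets in limma, with a smallest adjusted p of 0.451. At an unadjusted p under 0.05 it was met by 14 of the 55, several of them sets of the same gene, against 6.63% of all kept sets of both chips. Within the fluidics stations, which the instrument records give, 18 of 29 members had opposite signs, among them Tpi1 (1.22 in station 1, -0.20 in station 2) and Ldha (0.98 and -0.07). No share over all kept sets was taken, so this count cannot be read as particular to the members. Station 1 held only M2, a male culture, and M1, a female one, so stage and sex cannot be told apart there. Slc2a1 (0.85 and 1.24), P4ha1 (1.03 and 0.42) and both Hk3 sets kept their direction in both stations.

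Around the members, 125 further genes of 7 lists covered other isozymes, pyruvate entry into mitochondria, the pentose phosphate pathway, glycogen, HIF partners, other HIF targets and regulators of glycolytic genes. Of these 82 were tested, 0 passed in limma, 1 had an unadjusted p under 0.05, and the median log2 difference was 0.01. That 1 was Ugp2, which makes UDP-glucose for glycogen, with a log2 difference of -1.35 ± 0.55 and an adjusted p of 0.673. The stages did not overlap for 2 of the 82, both higher in mature cultures. Chip A as a whole had mature cultures entirely above in 6.14% of its kept sets and entirely below in 6.06%. Chip B had 6.17% above and 5.83% below. An unadjusted p under 0.05 was met by 6.59% of kept sets for chip A and 6.42% for chip B. Neither count among the 82 exceeded these shares, which are over sets and not genes. The 2 were Gpd2 and Mtor. Gpd2, the mitochondrial glycerol phosphate dehydrogenase, had 4117, 2576 and 2553 units in mature cultures and 2469, 2371 and 2453 in precursor cultures, a log2 difference of 0.30 ± 0.26. Mtor, the growth kinase that Ddit4 restrains, had 1953, 2331 and 1999 units in mature cultures and 1752, 1447 and 1655 in precursor cultures, a log2 difference of 0.37 ± 0.24.

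By list, 0 genes passed in either direction among 16 tested of other isozymes and side steps, 9 of pyruvate entry, 6 of the pentose phosphate pathway, 9 of glycogen, 9 of HIF partners, 19 of other HIF targets and 14 of regulators. Pgd, which makes NADPH in the pentose phosphate pathway, had 19092, 30743 and 17564 units in mature cultures, against 43910, 16860 and 40404 in precursor cultures, with a log2 difference of -0.51 ± 0.37. Txnip, a glucose-induced brake on glucose uptake, had 20429, 15930 and 18576 units in mature cultures and 12592, 18078 and 5575 in precursor cultures, a log2 difference of 0.75 ± 0.37. Cited2, which competes with HIF-1 alpha for a coactivator, gave 0.49 ± 0.26. Pim1, a kinase induced by cytokines and listed here among HIF targets, had 92911, 98598 and 245187 units in mature cultures and 87531, 128754 and 56399 in precursor cultures, with M6 highest. The list medians ran from -0.09 in the pentose phosphate pathway to 0.13 in HIF partners.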

How the data were processed

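Gene expression was measured in 6 mouse cultures on 12 arrays. The deposited intensity per probe set is linear and was made by the authors with MAS5, per the submitters' processing notes; version and settings are not given in the sources used here. Each array's trimmed mean is about 1500, from the values. Detection calls were not used. The number of arrays limits the precision. The instrument records (not measurements) gave only chip lot, fluidics station and scan day.

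The chips were fitted apart. A floor was set before log2 at the 30th percentile of each chip's values, 247 units for chip A and 359 for chip B. Sets above the table's median on at least 3 of 6 arrays were kept, 11576 on chip A and 11880 on chip B, without control sets. The test was limma 3.58.1 under R 4.3.3 (lmFit, eBayes with an intensity trend, two-sided, Benjamini-Hochberg within a chip, adjusted p under 0.05). Differences are mature minus precursor.

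A gene's brightest set stood for it, chip A first. Symbols came from the platform annotation, and sets with several symbols were kept apart. Of the members, 33 had a set with 1 symbol, 3 were too dim (Eno2, Slc16a1 and Slc16a3), and Gapdh had only controls. Values per culture were given for members called or not overlapping, for 10 fixed members (Hif1a, Slc2a1, Slc2a3, Hk2, Pkm, Ldha, Bnip3, Egln3, Pdk1 and Gapdh), and for others where a role turned on them, which were chosen after their values were seen. From the lists came genes called, up to 3 not overlapping or the 2 brightest, and Ugp2, named as the 1 at an unadjusted p under 0.05. The members and lists were chosen with earlier results of these data known.

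The fit was tested on simulated data. Alternatives were other scalings, floors and filters, no trend, array weights, sex or station as a block and each culture left out. The interaction with sex and the values within station and sex were added after the data were seen.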

Additional observations from a re-analysis of the deposited data

How the results depend on the processing

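Under every alternative run, 0 members passed by their brightest set, which says little of stability, since with the reported settings all their differences were below the smallest that was called on their chip. The smallest adjusted p over the alternatives was 0.094 for Ddit4 (log2 difference 1.03 to 1.65) and 0.144 for Bnip3 (-0.09 to 1.08). It was 0.156 for Slc2a1 (0.71 to 1.46) and 0.338 for Hk3 (-1.38 to -0.67). The second Hk3 set kept its direction wherever it was tested, but its log2 difference of -4.23 had an adjusted p of 0.213 with no filter on dim sets, where the unadjusted p was 0.000114 against 2.4e-07 with the filter, and it failed the filter without any one precursor culture. The median member difference was 0.16, 0.31 with array weights, and -0.10 to 0.33 with a culture left out, the lowest without M2 and the highest without M6. Among uncalled values, 34 of 459 changed sign, in 16 of 29 members, 13 of them with a difference under 0.3. The chip A count of changed sets was 61, and 1 with no filter on dim sets. It was 15 to 44 with a culture left out, 15 without M5, 24 without M2, 25 without M1 and 40 without M3. The chip B count was 11. It was 4 with no floor, 17 with a floor at the 50th percentile, 0 with no filter, 6 with a mean above the 60th percentile, 3 with no trend, 7 with array weights, 17 with sex as a block and 1 to 8 with a culture left out (1 without M5, 4 without M3, 3 without M2, M4 or M6). The causes were not tested. No block for scan day or chip lot was run, since each chip had 1 lot and 1 scan day. No paired analysis was possible because the stages share no replicate numbers. Signal near the floor limits Pdk1, Pfkfb3, Egln3 and the second sets of Aldoc and Hk3.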
